A study of Homo sapiens with 8 samples.

Results

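Interferon-stimulated and RNA-sensing genes were examined in DLD1 cells, an established human colorectal cancer line, as a list of 45 genes given by symbol. The list holds the cytosolic sensors of RNA and DNA with their adaptors, the transcription factors that act after them, and antiviral genes that interferon induces. All 45 were found in the gene count table, which has 58302 rows. The 32 with a mean raw count of at least 10 over the 4 columns were reported, and all 32 were among the 14133 genes tested.

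Cells carried a lentiviral pCDH construct for stable overexpression of both subunits of the tRNA m1A methyltransferase, TRMT6 and TRMT61A (OE-WT), or the empty vector (CTRL). Each group had 2 libraries, each run on 2 lanes that are merged in 1 column. The control group is labelled wild type for genotype, and both groups were washed in cycloheximide, an inhibitor of translation, before lysis. The design text calls the cultures duplicates. Whether each group is 1 transduced population was not given in the sources used here, so the p-values measure the spread between these cultures. The catalytic mutant of the study was not analysed here.

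The OE-WT libraries held 10460284 and 10327498 counts in total and the CTRL libraries 12379671 and 12063433. Levels are given as CPM, counts relative to the library total after TMM scaling. The overexpressed genes followed the labels. TRMT6 stood at 211 and 181 CPM in OE-WT against 52.6 and 55.4 in CTRL, and TRMT61A at 137 and 130 against 58.9 and 56.8. Of 9 markers of colorectal epithelium, 8 had a mean count of at least 10, and the 9 summed to 11500 to 11800 CPM in OE-WT against 10100 to 10300 in CTRL. KRT8 and KRT18 made up most of that sum and rose (log2 fold changes 0.25 and 0.30), while KRT20 (-1.52) and CDH1 (-0.29) fell, so the list did not move one way. Markers of leukocytes summed to 1.57 to 1.71 CPM in OE-WT and 1.46 to 2.57 in CTRL, and those of fibroblasts and endothelium to 3.05 to 3.93 and 3.41 to 4.74. Of these, 1 of 5 leukocyte markers and 4 of 8 fibroblast and endothelial markers were at 0 in all libraries. The part of the epithelial differences in the results below was not tested. In bulk RNA, fewer cells expressing a gene and less of its RNA per cell cannot be told apart.

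As background, RIG-I and MDA5 recognise double-stranded or unmodified RNA in the cytosol and signal through MAVS, while cGAS recognises DNA and signals through STING1. Both routes activate the factors IRF3 and IRF7, which switch on type I interferon genes. Secreted interferon then acts through JAK kinases and a complex that holds STAT2 and IRF9 on the interferon-stimulated response element (ISRE), a promoter sequence shared by many antiviral genes. Epithelial cancer lines often keep a part of this program at a low level without infection.

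Of the 32 reported genes, 5 fell and 2 rose in OE-WT at an adjusted p below 0.05 (edgeR's quasi-likelihood test, Benjamini-Hochberg over all 14133 genes), and 25 passed in neither direction. The genes that fell were IFIT1, IFI6, LGALS3BP, IRF7 and ISG15, and the genes that rose were OAS3 and IFITM2. The 5 are 15.6% of the 32, beside 11.6% of all genes tested that were lower. The 2 are 6.25%, beside 9.44% of all genes tested that were higher. The median log2 fold change (OE-WT over CTRL) of the 32 was -0.16, with a range from -1.0003 to 0.75, and that of all genes was 0.01. The fitted value was below 0 for 19 of the 32, beside 48.9% of all genes.

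Only IFIT1 passed the fold thresholds of the study's methods, an unadjusted p below 0.05 with a log2 fold change beyond 1 in size. Among all genes 3.15% passed them, 2.25% in the lower direction and 0.899% in the higher, and IFIT1 did so at a log2 fold change of -1.0003. Both OE-WT libraries lay below both CTRL libraries for 15 of the 32 genes and above them for 7, and the groups overlapped for 10. The same holds for 30.2% of all genes in the lower direction and 29.9% in the higher. With 2 libraries against 2 an exact permutation test of a single gene cannot go below p = 0.333.

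The largest share of the list's RNA came from a single gene. LGALS3BP, which encodes a secreted glycoprotein that binds galectins, had the highest level per length of exon, 184 RPKM (CPM per kilobase of merged exon). IFITM3 followed with 97.8 RPKM and IFITM2 with 90.2. Summed over the 32 genes and the 13 unreported ones, the level was 1613 and 1643 CPM in OE-WT and 1887 and 1866 in CTRL. Without LGALS3BP the sum was 1127 and 1128 CPM in OE-WT and 1128 and 1112 in CTRL, so the groups no longer stood apart. The lowest levels per length among the 32 were those of MX2, 0.0743 RPKM, and MX1, 0.0879 RPKM.

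**Figure D1:**
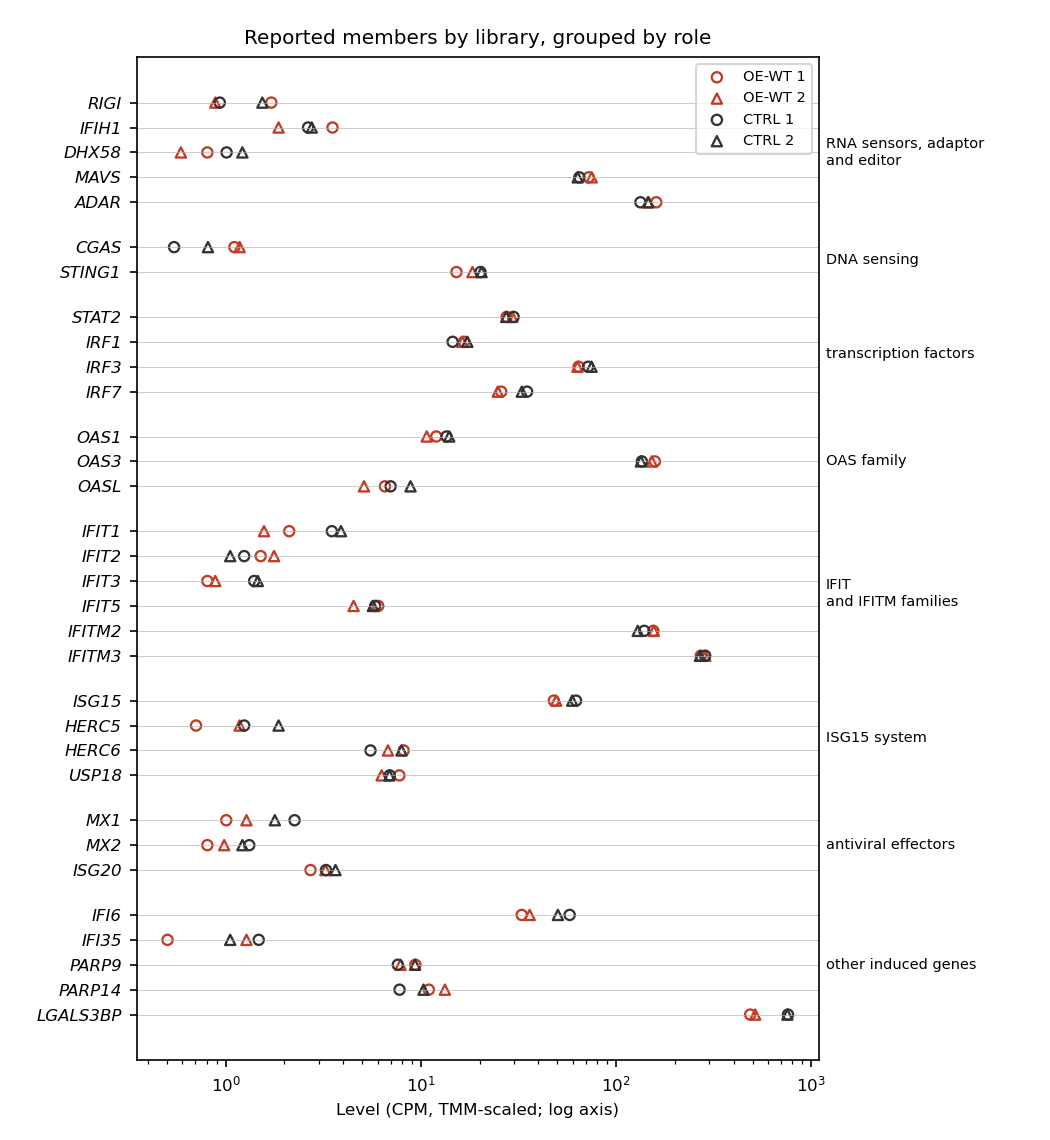
TMM-scaled CPM (log axis) of each of the 32 reported genes in the 4 libraries, with genes grouped by role. Red marks are OE-WT and dark marks CTRL, with circles for replicate 1 and triangles for replicate 2. LGALS3BP is the highest, at 486 and 516 CPM in OE-WT against 759 and 754 in CTRL.

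LGALS3BP (GRCh38 chromosome 17, 78971238 to 78979947, minus strand) showed 486 and 516 CPM in OE-WT and 759 and 754 CPM in CTRL. Its log2 fold change was -0.60 (SE 0.06, adjusted p = 1.2e-06), a level 33.8% lower. The gap between the groups was several times the gap between replicates. IFI6 (chromosome 1, 27666064 to 27672212, minus strand), an interferon-induced membrane protein, showed 32.8 and 36.1 CPM in OE-WT and 57.8 and 50.3 CPM in CTRL. Its log2 fold change was -0.65 (SE 0.09, adjusted p = 2.7e-05), or 36.3% lower, again with no overlap. These 2 genes passed in each of the 9 refits with another scaling, filter, test, pairing or GC correction and in each of the 4 fits that left out 1 library. IFI6 shares 23.1% of its merged exon bases with LINC02574 on the same strand, which had at most 1 count in a library.

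The promoter sequences of the genes that passed are shown because the response element named above can be looked for in them. The core of the ISRE was searched as GAAA, any 2 bases and GAAA on both strands in windows of 300 bases, from 250 before to 50 after each gene's start (RefSeq, GRCh38.p14). Of the 45 genes, 33 had a window and some had several. A match was held by 26 of their 42 windows (61.9%), from 22 of the 33 genes, beside 3.57% of all 35116 windows. The interferon-gamma element, searched as TTCNNNGAA on both strands, was held by 12 of the 42 windows (28.6%), beside 7.66% of all windows. The 2 motifs overlapped in IFITM1, MX1, BST2, IFI27 and EPSTI1. Such a match is a run of letters and not a site shown to be bound.

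The 250 bases before the start of 5 of the 7 genes that passed follow, 5′ to 3′ on the gene's strand, with each ISRE core in capitals. OAS3 (chr12:112938224-112938473, plus strand) held 2 cores, the nearest ending 2 bases before the start. IFIT1 (chr10:89392373-89392622, plus strand) held 2 cores in the reverse orientation, the nearest 93 bases before the start. ISG15 (chr1:1013247-1013496, plus strand) held 2 overlapping cores that form 1 block, 97 bases before the start. IFI6 (chr1:27672193-27672442, minus strand) held 3 cores, the nearest 83 bases before the start, and LGALS3BP (chr17:78979924-78980173, minus strand) held 1, 48 bases before it.
OAS3: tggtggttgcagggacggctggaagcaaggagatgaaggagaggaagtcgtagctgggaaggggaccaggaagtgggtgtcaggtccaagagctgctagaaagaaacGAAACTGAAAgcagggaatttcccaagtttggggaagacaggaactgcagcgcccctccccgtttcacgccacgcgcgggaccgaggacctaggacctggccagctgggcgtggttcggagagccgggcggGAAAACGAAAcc
IFIT1: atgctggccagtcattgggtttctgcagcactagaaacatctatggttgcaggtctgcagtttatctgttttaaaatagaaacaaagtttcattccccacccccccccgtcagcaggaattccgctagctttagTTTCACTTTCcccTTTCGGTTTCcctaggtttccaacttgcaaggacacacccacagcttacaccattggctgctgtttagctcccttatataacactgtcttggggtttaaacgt
ISG15: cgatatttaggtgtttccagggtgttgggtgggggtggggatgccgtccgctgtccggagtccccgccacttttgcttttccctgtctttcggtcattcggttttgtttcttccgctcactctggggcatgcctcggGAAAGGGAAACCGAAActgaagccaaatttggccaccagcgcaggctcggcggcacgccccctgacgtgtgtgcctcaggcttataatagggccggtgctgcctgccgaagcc
IFI6: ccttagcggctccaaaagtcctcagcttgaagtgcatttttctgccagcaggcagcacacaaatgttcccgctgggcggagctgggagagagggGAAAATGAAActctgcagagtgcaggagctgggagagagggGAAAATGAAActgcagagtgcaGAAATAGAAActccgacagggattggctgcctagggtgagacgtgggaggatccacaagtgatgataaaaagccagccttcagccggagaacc
LGALS3BP: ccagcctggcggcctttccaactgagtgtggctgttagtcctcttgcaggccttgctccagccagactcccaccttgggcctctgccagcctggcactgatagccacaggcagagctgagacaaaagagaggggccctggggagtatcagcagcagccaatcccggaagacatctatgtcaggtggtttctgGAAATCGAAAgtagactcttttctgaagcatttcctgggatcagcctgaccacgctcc

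IRF7 and IFITM2, the other genes that passed, had no entry among the windows, and neither had DHX58, CGAS, STING1, IRF3, OAS2, OASL, IFIT2, USP18, MX2 and TRIM22. Among the 22 reported genes with a window, 14 held the core as searched, with 2 bases between the GAAA runs, and 8 did not. A form with 1 base between the runs was not searched. It is present in the windows of RIGI, OAS1 and IFI35, which are among the 8 (log2 fold changes 0.07, -0.28 and -0.50). The split therefore depends on the form searched. The 14 had a median log2 fold change of -0.27 (from -1.0003 to 0.43), with 4 lower, 1 higher and 10 fitted below 0. The 8 had a median of 0.06 (from -0.50 to 0.20), with 3 fitted below 0. None of the 8 passed by edgeR, beside 21.1% of all genes tested, and MAVS alone had an unadjusted p below 0.05. DESeq2 gave no adjusted p for RIGI or IFI35, and the other genes of the 8 did not pass by it. Among the other genes tested, the 368 with a core had a median of 0.02 and 12.2% lower, and the 9787 without one had a median of 0.01 and 11.9% lower. All 5 printed genes hold a core, also OAS3, which was higher in OE-WT. The split by motif was a description and was not tested.

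Among the RNA sensors with their adaptor and editor, none of the 5 reported genes passed by edgeR. Of all genes tested, 21.1% passed in either direction. MAVS alone of the 5 had an unadjusted p below 0.05. DESeq2 gave no adjusted p for RIGI or DHX58, and the others did not pass by it. RIGI, the gene of RIG-I, was at 1.71 and 0.88 CPM in OE-WT and 0.93 and 1.54 CPM in CTRL, and its libraries overlapped (log2 fold change 0.07, SE 0.42). IFIH1, the gene of MDA5, was at 3.53 and 1.87 against 2.64 and 2.76 CPM, also with overlap (-0.01, SE 0.30). Both sensors were thus measured on 9 to 35 reads a library, and a difference of moderate size was not detectable at this depth. DHX58, which encodes the regulator LGP2, had 8 and 6 counts in OE-WT against 13 and 15 in CTRL (-0.67, SE 0.46, adjusted p = 0.331).

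The adaptor and the editor had more reads. MAVS, the mitochondrial adaptor, was at 72.3 and 74.98 CPM in OE-WT and 64.8 and 63.6 CPM in CTRL. Its log2 fold change of 0.20 (SE 0.07) missed the threshold at an adjusted p of 0.056. It passed in 1 of 9 refits, at 0.027 once a GC trend was removed. The adjusted p was 0.409 by library size alone and 0.287 by DESeq2. ADAR, which edits adenosine to inosine in double-stranded RNA, was at 161 and 147 CPM against 133 and 146 (0.14, SE 0.07, adjusted p = 0.168). In both genes the OE-WT libraries lay above the CTRL libraries, narrowly so for ADAR, as they did for 29.9% of all genes tested.

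The DNA-sensing genes gave fitted values of opposite sign. Neither passed by edgeR, beside 21.1% of all genes tested, and STING1 alone had an unadjusted p below 0.05. DESeq2 gave no adjusted p for CGAS, and STING1 did not pass by it. CGAS, the DNA sensor, had 11 and 12 counts in OE-WT against 7 and 10 (0.75, SE 0.46, adjusted p = 0.263). STING1, which receives the signal of cGAS, was at 15.2 and 18.4 CPM in OE-WT against 20.2 and 20.5 CPM in CTRL (-0.27, SE 0.12, adjusted p = 0.124). STING1 passed in 1 of 9 refits, by library size alone (-0.365, adjusted p = 0.0328). With the GC trend removed it was -0.19 (adjusted p = 0.302). Leaving out 1 library gave values from -0.43 to -0.14. The groups did not overlap in either gene, beside 29.9% of all genes tested above CTRL without overlap and 30.2% below.

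Of the transcription factors, IRF7 fell. IRF7 (chromosome 11, 612553 to 615983, minus strand), the factor that amplifies the type I interferon response, was at 25.8 and 24.8 CPM in OE-WT and 35.0 and 32.9 CPM in CTRL. The log2 fold change was -0.43 (SE 0.10, adjusted p = 0.003), with the groups apart by more than the spread in either. IRF3, which is activated directly after sensing, was at 64.3 and 63.4 CPM against 71.9 and 74.8. Its groups did not overlap either, but the difference of -0.20 (SE 0.07) missed the threshold at an adjusted p of 0.054. It passed by library size alone (adjusted p = 0.009) and under the filter of 10 counts in each library (adjusted p = 0.044), and was -0.08 (adjusted p = 0.471) with the GC trend removed. IRF3 shares 19.3% of its exon bases with BCL2L12 on the other strand, which had 606 to 921 counts, and whether the counting used strand was not given in the sources used here. STAT2 was at 27.5 and 29.4 against 29.8 and 27.4 CPM and IRF1, which also answers interferon-gamma, at 16.6 and 16.3 against 14.5 and 17.3 CPM. Both overlapped, with log2 fold changes of -0.01 (SE 0.10) and 0.05 (SE 0.13). IRF1 shares 22.9% of its exon bases with IRF1-AS1 on the other strand, which had 25 to 37 counts.

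In the OAS family, whose members make the oligoadenylates that activate RNase L, OAS3 rose. OAS3 (chromosome 12, 112938051 to 112976460, plus strand) was at 158 and 152 CPM in OE-WT and 135 and 134 CPM in CTRL (0.20, SE 0.07, adjusted p = 0.028). OAS1 was at 12.0 and 10.7 CPM against 13.5 and 13.96 (-0.28, SE 0.14, adjusted p = 0.184). OASL, a relative without the enzyme activity, was at 6.55 and 5.11 CPM against 7.00 and 8.85 (-0.44, SE 0.20, adjusted p = 0.118). OASL passed in 1 of 9 refits, by library size alone (adjusted p = 0.0376). No group overlapped within these 3 genes, and the OE-WT libraries were above CTRL for OAS3 and below it for OAS1 and OASL. Of all genes tested, 29.9% lay above CTRL without overlap and 30.2% below. The difference between family members was not tested. OAS3 missed the threshold in 3 of the 4 fits without a library, at adjusted p of 0.138 without OE-WT replicate 1, 0.096 without CTRL replicate 1 and 0.106 without CTRL replicate 2. It also missed in 4 of the 9 refits, with adjusted p of 0.354 by library size alone, 0.139 by DESeq2, 0.097 with no filter and 0.089 with the replicate block.

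In the IFIT family, whose members bind foreign RNA or one another, IFIT1 fell. IFIT1 (chromosome 10, 89392546 to 89406487, plus strand) had 21 and 16 counts in OE-WT against 45 and 48, or 2.12 and 1.57 against 3.50 and 3.90 CPM. Its log2 fold change was -1.0003 (SE 0.28, adjusted p = 0.015), the largest fall of the 32 genes and one that rests on few reads. The adjusted p was 0.149 by DESeq2, and leaving out OE-WT replicate 2 or CTRL replicate 2 gave -0.81 (adjusted p = 0.109) or -0.92 (adjusted p = 0.063). IFIT3, a partner of IFIT1, had 8 and 9 counts against 18 and 18 (-0.75, SE 0.41, adjusted p = 0.208). IFIT2 had 15 and 18 counts against 16 and 13, which is 1.51 and 1.77 CPM against 1.24 and 1.05 (0.51, SE 0.37, adjusted p = 0.359). IFIT5 was at 6.04 and 4.52 against 5.83 and 5.68 CPM, with overlap (-0.13, SE 0.21).

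The IFITM proteins hinder the fusion of viruses with cell membranes. IFITM2 (chromosome 11, 303655 to 309397, plus strand) rose from 139 and 129 CPM in CTRL to 155 and 156 CPM in OE-WT (0.21, SE 0.07, adjusted p = 0.026). IFITM3 was at 272 and 286 CPM in OE-WT and 286 and 269 CPM in CTRL, with full overlap (0.01, SE 0.07, adjusted p = 0.947). The 2 genes are close copies whose reads the counting could split or set aside, so their separate values are uncertain. IFITM2 passed in only 1 of the 4 fits without a library, with adjusted p of 0.065 without OE-WT replicate 1, 0.081 without OE-WT replicate 2 and 0.209 without CTRL replicate 2. It missed in the same 4 refits as OAS3, with adjusted p of 0.323 by library size alone, 0.133 by DESeq2, 0.094 with no filter and 0.073 with the replicate block.

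ISG15, a ubiquitin-like protein that is attached to other proteins, fell among the 4 genes of its system. ISG15 (chromosome 1, 1001138 to 1014540 in the GENCODE annotation) was at 48.0 and 49.3 CPM in OE-WT and 62.3 and 59.6 CPM in CTRL (-0.33, SE 0.08, adjusted p = 0.004). The groups did not overlap. The call was lost by DESeq2 (adjusted p = 0.055) and with the GC trend removed (-0.15, adjusted p = 0.177). HERC5, the ligase that attaches ISG15, had 7 and 12 counts against 16 and 23 (-0.71, SE 0.42, adjusted p = 0.245). USP18, which removes ISG15 and also restrains the interferon receptor, was at 7.76 and 6.29 against 6.92 and 6.90 CPM (0.02, SE 0.18). HERC6, a relative of HERC5, was at 8.16 and 6.78 against 5.52 and 7.95 CPM (0.15, SE 0.20). Both of these overlapped.

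Among the antiviral effectors with enough reads, none of the 3 passed by edgeR, beside 21.1% of all genes tested that passed in either direction. MX1 alone had an unadjusted p below 0.05. The OE-WT libraries were below CTRL in each, as they were for 30.2% of all genes tested. DESeq2 gave no adjusted p for MX1 or MX2, and ISG20 did not pass by it. MX1, a GTPase that blocks viral nucleoproteins, had 10 and 13 counts in OE-WT against 29 and 22 (-0.82, SE 0.36, adjusted p = 0.115). Its relative MX2 had 8 and 10 counts against 17 and 15 (-0.50, SE 0.42, adjusted p = 0.431). ISG20, an RNA exonuclease, was at 2.72 and 3.24 against 3.26 and 3.65 CPM (-0.21, SE 0.26, adjusted p = 0.606).

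The other induced genes divided in sign. PARP14, an ADP-ribosyltransferase, was at 10.98 and 13.3 CPM in OE-WT and 7.77 and 10.3 CPM in CTRL (0.43, SE 0.17, adjusted p = 0.079). It passed in 0 of 9 refits, with an adjusted p up to 0.309 by DESeq2. Leaving out 1 library gave log2 fold changes from 0.23 to 0.64. PARP9, an ADP-ribosyltransferase relative, overlapped at 9.37 and 7.86 against 7.62 and 9.33 CPM (0.02, SE 0.18). IFI35 had 5 and 13 counts against 19 and 13 (-0.50, SE 0.46, adjusted p = 0.478), and OE-WT replicate 1 was the lowest of its libraries.

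**Figure D2:**
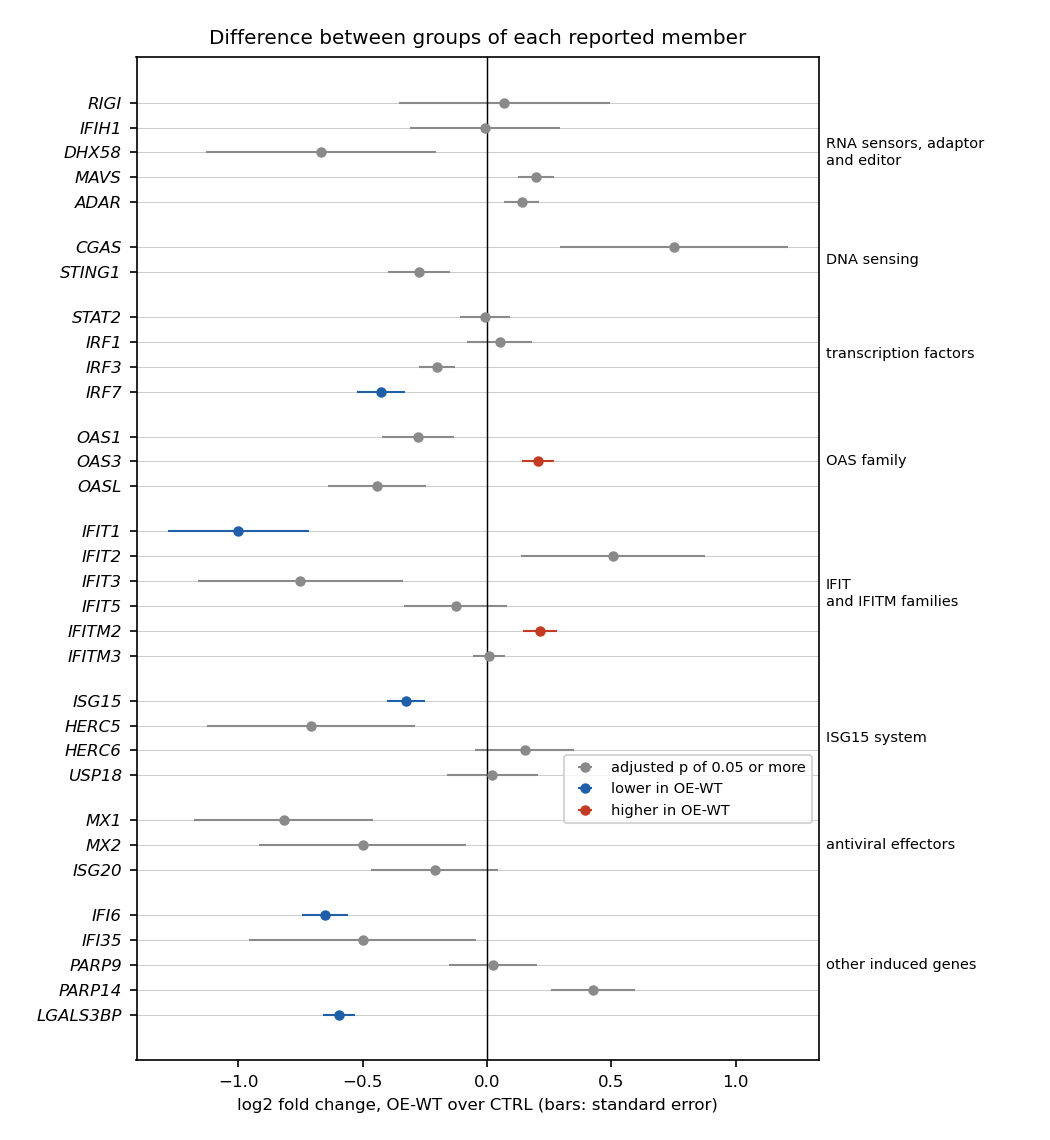
Log2 fold change of OE-WT over CTRL (horizontal axis) with its standard error for each of the 32 reported genes, grouped by role. IRF7, IFIT1, ISG15, IFI6 and LGALS3BP (blue) were lower, OAS3 and IFITM2 (red) were higher, and grey genes did not pass an adjusted p of 0.05. The widest bars belong to genes with few reads, such as CGAS and DHX58.

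The admission rule used the mean count, so its values are a description. Just inside it stood CGAS with a mean of 10.0 counts, DHX58 with 10.5, and IFI35 and MX2 with 12.5 each. Just outside stood OAS2 with 7.5, SAMD9 with 3.75 and IFITM1 with 3.5. In full, 13 genes were not reported, namely those 3 with IFI27, EPSTI1, DDX60, IRF9, BST2, TRIM22, IFI44, IFI44L, XAF1 and SAMD9L. OAS2 had 4 and 5 counts in OE-WT against 7 and 14. IRF9, the DNA-binding partner of STAT2, had 1 and 0 counts against 5 and 3, and it shares 23.9% of its exon bases with an overlapping gene of the same strand, so reads could have been set aside. SAMD9 had 2 and 2 counts against 7 and 4, IFITM1 2 and 6 against 3 and 3, DDX60 1 and 6 against 1 and 3, and EPSTI1 3 and 1 against 5 and 3. IFI27 had 0 and 2 counts against 4 and 5, and IFI44, IFI44L, TRIM22 and BST2 had at most 2 in any library. XAF1 and SAMD9L had 0 in all 4, and a count of 0 allows up to 0.233 to 0.302 CPM in a library, for counting error only.

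GC content moved with the difference between the groups over all genes. By GC of the longest transcript, the median log2 fold change fell from 0.13 in the 2226 genes under 40% to -0.16 in the 2035 genes over 60%. The genes that fell had 66.8% GC (IRF7), 63.4% (ISG15), 61.2% (LGALS3BP), 56.4% (IFI6) and 42.2% (IFIT1), beside a median of 48.9% for all genes and 50.4% for the 32. With a smooth GC trend removed from each library, IFIT1 (log2 fold change -1.09), IFI6 (-0.57) and LGALS3BP (-0.45) stayed past the threshold. IRF7 went to -0.21 (adjusted p = 0.128) and ISG15 to -0.15 (adjusted p = 0.177), and neither passed. The genes that rose had 51.2% (OAS3) and 56.9% (IFITM2), and they passed at log2 fold changes of 0.23 and 0.30.

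**Figure D3:**
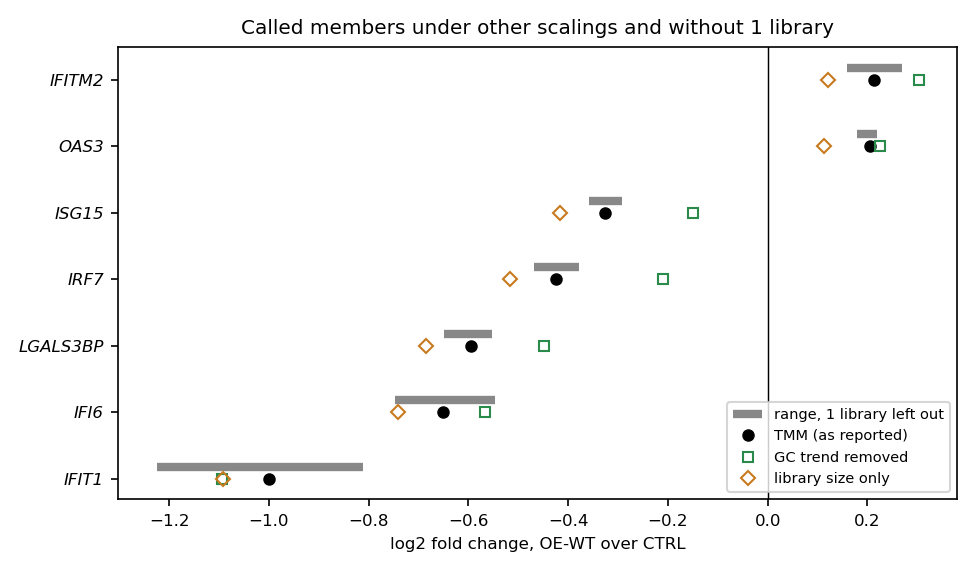
Log2 fold change of OE-WT over CTRL for the 7 genes that passed, under TMM scaling (black), library size alone (orange) and a GC trend removed (green), with the range over the 4 fits that left out 1 library (grey bars). No value crosses 0. IRF7 and ISG15 lie nearest to 0 with the GC trend removed, at -0.21 and -0.15, and OAS3 and IFITM2 with library size alone, at 0.11 and 0.12.

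Genes around the 45 in the same pathway were taken as 6 lists of 90 genes, of which 65 were tested. At an adjusted p below 0.05, 13 were higher and 9 lower, or 20% and 13.8%, beside 9.44% and 11.6% of all genes. The median log2 fold change of the 65 was 0.07. No transcript of 8 of the 9 interferon ligands was counted in any library, and IFNL1 had 2 counts in CTRL replicate 1.

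Among the 8 receptors and kinases tested, 1 rose and 2 fell, or 12.5% and 25%, beside 9.44% and 11.6% of all genes. IFNAR1, a chain of the type I receptor, rose from 10.5 and 10.2 CPM in CTRL to 15.1 and 14.8 CPM in OE-WT (0.53, SE 0.14, adjusted p = 0.010). IFNGR1, a chain of the interferon-gamma receptor, fell from 98.4 and 101 CPM to 73.7 and 69.8 CPM (-0.48, SE 0.07, adjusted p = 5e-05). IL10RB, a chain shared by the lambda interferon receptor, fell (-0.43, adjusted p = 0.024). By DESeq2 the list gave 0 higher and 1 lower, with IFNAR1 at an adjusted p of 0.090 and IL10RB at 0.156. IL10RB also missed without OE-WT replicate 1 (-0.30, adjusted p = 0.230) and without CTRL replicate 2 (-0.39, adjusted p = 0.088).

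Of 11 adaptors and kinases below the sensors, TRAF3 (0.33, adjusted p = 0.009) and MYD88 (0.31, adjusted p = 0.021) rose and NLRX1, a mitochondrial relative of NOD-like receptors, fell (-0.46, adjusted p = 0.016). These are 18.2% higher and 9.09% lower, beside 9.44% and 11.6% of all genes. With the GC trend removed the list gave 3 higher and 0 lower, so NLRX1 missed. The list gave no call by DESeq2 or without OE-WT replicate 1, and none higher by library size alone. Leaving out 1 library in turn, MYD88 passed in 1 of 4 fits (without CTRL replicate 1), TRAF3 in 2 (without OE-WT replicate 2 or CTRL replicate 2) and NLRX1 in the same 2.

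Among 15 genes for the handling of double-stranded RNA and self nucleic acid, 6 rose, or 40% beside 9.44% of all genes. They were SAMHD1, which hydrolyses deoxynucleotides (0.80, adjusted p = 2e-04), DICER1 (0.58), the kinase EIF2AK2, also called PKR (0.49), the mitochondrial exonuclease PNPT1 (0.45), the helicase DHX9 (0.37) and STAU1, a double-stranded RNA binder (0.28). Scaling by library size alone, DESeq2, no filter, and leaving out OE-WT replicate 1 or CTRL replicate 1 each gave a count of 3 higher. SAMHD1 and EIF2AK2 passed in each refit and each fit without a library, and STAU1 missed by library size alone (adjusted p = 0.106). DICER1 passed in 0 of the 4 fits without a library (adjusted p of 0.063 to 0.122) and in 5 of 9 refits. PNPT1 and DHX9 missed without OE-WT replicate 1 (0.28 and 0.24) and without CTRL replicate 1 (0.21 and 0.20). None fell by edgeR, beside 11.6% of all genes, and none by DESeq2. ADARB1 alone was lower at an unadjusted p below 0.05 by edgeR, and 1 gene fell by library size alone.

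Of 23 further interferon-stimulated genes tested, 2 rose and 5 fell, or 8.7% and 21.7%, beside 9.44% and 11.6% of all genes. DTX3L (0.55), a ubiquitin ligase that pairs with PARP9, and LAP3 (0.40), an aminopeptidase, rose. HELZ2 (-0.55), PARP10 (-0.51), the cytidine deaminase APOBEC3B (-0.46), APOL6 (-0.45) and UBE2L6 (-0.43), the enzyme that hands ISG15 to its ligase, fell. By DESeq2 2 were higher and 3 lower, without APOL6 (adjusted p = 0.160) and UBE2L6 (adjusted p = 0.129). With the GC trend removed 2 were higher and 4 lower, and UBE2L6 missed. DTX3L missed without OE-WT replicate 1 (0.40, adjusted p = 0.090), UBE2L6 without OE-WT replicate 1 or CTRL replicate 1 (-0.35 in each), and APOL6 in every fit without a library but that without OE-WT replicate 2 (-0.33 to -0.45).

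Of 8 negative regulators, the phosphatases PTPN11 (0.55) and PTPN1 (0.28) rose, and SOCS3, an inhibitor of JAK kinases, fell with 4 and 8 counts in OE-WT against 19 and 21 in CTRL (-1.40, adjusted p = 0.031). These are 25% higher and 12.5% lower, beside 9.44% and 11.6% of all genes. With the GC trend removed SOCS3 missed, at an adjusted p of 0.0537. SOCS3 passed in 1 of the 4 fits without a library, that without OE-WT replicate 2, and PTPN1 missed by library size alone (adjusted p = 0.124), by DESeq2 (0.123), without OE-WT replicate 1 (0.19, adjusted p = 0.206) and without CTRL replicate 1 (0.23, adjusted p = 0.103).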

How the data were processed

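RNA from cycloheximide-treated DLD1 lysates was sequenced from 2 OE-WT and 2 CTRL libraries, each on lanes 1 and 3. The labels give poly(A) selection and a stranded kit, and the study's methods ribosomal RNA removal. The authors deposited 1 table of raw counts per Ensembl gene with lanes merged. The submitters' processing notes name HISAT2 2.2.1, featureCounts 2.0.0 and DESeq2 1.34.0 on GRCh38, and the study's methods name HTSeq and edgeR, so the counter is uncertain. The study states 3 replicates and the labels number 2. Genes were named from the GENCODE annotation of GRCh38, which covered 57532 of 58302 identifiers. Counts were tested with edgeR 4.0.16 in R 4.3.3 (filterByExpr with a minimum count of 10, TMM, glmQLFit and glmQLFTest, Benjamini-Hochberg), with the whole table in the fit and no replicate block. The SE is the log2 fold change over the root of F. RPKM used merged exon length. Between libraries of a group, correlations were 0.992 and 0.994, and between groups 0.98 to 0.986. The 45 genes, the pathway lists and the marker lists were chosen with earlier results of these data known. All genes of the 45 with a mean count of at least 10 are named. The 3 nearest on either side of that limit are given with counts, and each gene of the pathway lists that passed is named. Some results are not reported here. Alternatives were RLE factors, library size alone, DESeq2 1.42.0, the exact test and the likelihood ratio test of edgeR, dropping the filter, a stricter filter (10 or more counts in each library), the replicate number as a block, a GC trend (lowess, span 0.3) removed as offsets, and each library left out. Scripts were tested on simulated counts. No column of the table was left unused.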

Additional observations from a re-analysis of the deposited data

How the results depend on the processing

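Against 5 lower and 2 higher of the 32 genes, library size alone gave 8 and 0 (the median of all genes moved to -0.08), DESeq2 3 and 0, no filter 5 and 0, and the GC trend removed 3 and 3. DESeq2 kept IFI6, LGALS3BP and IRF7, and gave no adjusted p for RIGI, DHX58, CGAS, IFIT2, IFIT3, HERC5, MX1, MX2 and IFI35. Leaving out 1 library gave 4 to 5 lower and 1 higher, 0 to 2 genes past the fold thresholds, a median from -0.23 to -0.14, and 11 to 22 pathway genes passing against 22. The median of the 32, -0.16, was -0.26 by library size alone and -0.0145 under the stricter filter of 10 counts in each library, where 25 of the 32 were left to fit. The count of pathway genes that passed was 10 by DESeq2, against 22 as reported. Same-numbered libraries did not deviate together (r = -0.09 over all genes and -0.389 over the reported genes). With 2 libraries in each group this cannot show whether same-numbered libraries were handled together. With the replicate block 5 genes were lower and 0 higher, and 22 pathway genes passed. The fitted sign changed only for genes that did not pass. By library size alone it was -0.0208 for RIGI, -0.0403 for IRF1, -0.0831 for IFITM3, -0.0700 for USP18 and -0.0674 for PARP9. With the GC trend removed it was -0.0406 for RIGI, 0.0101 for STAT2, -0.0661 for USP18 and -0.0613 for PARP9, and with no filter -0.0114 for IFITM3. Leaving out 1 library gave -0.472 to 0.467 for RIGI, -0.529 to 0.372 for IFIH1, -0.0692 to 0.0566 for STAT2, -0.0703 to 0.180 for IRF1, -0.347 to 0.0589 for IFIT5, -0.0420 to 0.0529 for IFITM3, -0.0916 to 0.435 for HERC6, -0.134 to 0.156 for USP18, -1.33 to 0.0095 for IFI35 and -0.117 to 0.176 for PARP9. The cause of these changes was not tested. In a fit without a library, the lone library of its group is assumed to vary like the other group. Few reads limit what could be seen in the sensors and in the IFIT and MX genes.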
